A study of Mus musculus with 16 samples.

Results

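The genes described here are 49 that license and copy DNA, move a cell through the cell cycle, hold it back, or carry out mitosis. They were picked as cell cycle and proliferation genes to ask whether the pituitary of a mutant female mouse expresses more of the division programme, as a high level of oestrogen would give. All 49 were among the 17362 genes of the deposited table. Averaged over the 16 mice, 39 of them reached a value of 1 and were tested, and 10 lay under that filter.

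The study followed female mice that lack the oestrogen receptor gene Esr1 in cells that have once expressed Nkx2-1, which include neurons of the ventral hypothalamus, and the mutants are described with a high bone mass. The study describes that bone phenotype as independent of high oestradiol, and levels of oestradiol in these mice are not given. Every mouse carried floxed Esr1 (Esr1fl/fl), and mutants also carried Nkx2-1-Cre, on a mixed genetic background. Mice were fed a standard chow diet (SD) or a high fat diet (HFD), the latter for 17 weeks, and pituitaries were taken at 27 weeks of age. Messenger RNA of each pituitary was sequenced, with 4 mice in each of 4 groups (control or mutant, SD or HFD). Each of the 16 libraries came from 1 animal with its own number.

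The values are the authors' normalized expression per gene, which are not read counts. Values of a mouse summed to between 908897 (control 3 on HFD) and 1335782 (mutant 1 on SD). The number of reads is not given, but low values of 1457 genes with a single transcript fell on steps, with 81.3 to 90.6% of them within 0.1 of a whole number of steps. The size of a step put 1 read on 1 kb of transcript at between 0.0461 and 0.0679 units. In a whole tissue, a lower value of a gene can mean fewer cells that express it or less of its RNA per cell, and these values cannot tell the cases apart. The transcript of prolactin (Prl), the lactotroph hormone, held 28.9% (control 3 on HFD) to 40.6% (control 4 on HFD) of the summed values.

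Esr1 itself was measured first, since it is the gene deleted. On SD, Esr1 stood at 40.5, 46.6, 39.4 and 29.0 in control mice 1 to 4 and at 10.02, 22.2, 20.5 and 21.8 in mutant mice 1 to 4. With HFD it stood at 23.6, 43.4, 42.7 and 39.6 in controls and at 33.4, 27.9, 33.0 and 21.6 in mutants. All SD mutants lay below all SD controls, while on HFD control 1 lay among the mutants. Esr1 fell by 1.09 on the log2 scale in SD mutants (standard error 0.252, limma adjusted p 0.0409, below the control mean in 4 of 4), and over the alternatives its adjusted p ran from 0.0326 to 0.154. The SD value lay above 0.05 without control 2 (0.12), 3 (0.11) or 4 (0.0689) on SD, without any 1 mutant on SD (0.0614 to 0.0811), and without mutant 1 (0.0536), 2 (0.0572) or 3 (0.0537) on HFD. It also lay above 0.05 with animal number (low or high, 0.0525) or the level of lobe markers (0.154) as a covariate. The same held under scaling to the sum without Prl (0.0597) and in a fit of the compared mice alone (0.0636). SD controls were animals P356, P358, P359 and P383, and SD mutants P357, P381, P382 and P384. In HFD mutants the difference was -0.34 (standard error 0.252, limma adjusted p 0.696, below the control mean in 4 of 4), and the genotype by diet interaction came to 0.75 (limma adjusted p 0.924). With each mouse left out, the HFD difference ran from -0.545 to -0.209. Averaged over diets Esr1 fell by 0.72 (limma adjusted p 0.028, below the control mean of the same diet in 8 of 8), a p that lay between 0.0529 and 0.0684 without control 2 or 3 on SD, control 2 or 3 on HFD, or mutant 2 or 4 on HFD.

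Of these 16 mice, mutant 1 on SD (animal P357) and control 4 on HFD (animal P392) stood apart from their groups. Mutant 1 on SD had a mitochondrial sum of 119409, against 32247 to 49368 in the other mice, and 533 genes at 0 against 96 to 310. Markers of the melanotrophs of the intermediate lobe had a mean log2 level of 0.67 in mutant 1 on SD and 2.11 in control 4 on HFD, against 2.96 to 3.89 elsewhere. Posterior lobe markers had a level of 0.54 in mutant 1 on SD and 0.46 in control 4 on HFD, against 1.33 to 1.91 elsewhere. How much of each lobe was dissected was not tested. Calls that rest on either mouse are given with and without it.

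A cycling cell loads the minichromosome maintenance (Mcm) helicase on its replication origins before S phase, which a resting cell does not. D-type cyclins with their kinases release E2F transcription factors from the retinoblastoma protein, which turns on the genes of DNA synthesis. Cdk1 with cyclins A and B drives entry into mitosis, and Aurora and Polo kinases, kinesins and centromere proteins part the chromosomes. The adult pituitary renews its cells slowly, and oestrogen is a known mitogen of rodent lactotrophs.

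The first comparison asked whether mutants on SD differed from controls on SD. Of the 39 members tested 0 passed an adjusted p of 0.05 in limma, and 6 had an unadjusted p under 0.05. Over all 14345 genes tested 264 passed (1.84%; 1.37% higher and 0.474% lower), and 19.9% had an unadjusted p under 0.05. The share of all genes that passed was 0.230 to 0.397% without any 1 of controls 2, 3 and 4 or mutants 2, 3 and 4 on SD, and 0.181% with the level of lobe markers as a covariate. The members' median difference was 0.18 on the log2 scale against -0.007 for all genes, and 29 of 39 (74.4%) were higher in mutants against 49.0% of all genes. Differences ran from -0.36 for Ccnd2 to 1.01 for Cdk1. In 5 of 39 members (12.8%) the values of mutants and controls did not overlap, namely Tk1, Ccnd3, Ccne2 and Cdc20 (higher) and Cdkn1b (lower), against 10.6% of all genes (6.09% higher and 4.50% lower). Tk1 and Cdc20 are named because of these values.

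On HFD the same question was asked of the other 8 mice. Here limma called 0 of 39 members and 0.00% of all genes, and 8 members had an unadjusted p under 0.05 against 10.2% of all genes. The median difference of the members was 0.18 against 0.02 for all genes, and 31 (79.5%) were higher in mutants against 53.9%. Tk1 had the lowest difference (-0.33) and Cdk1 the highest (1.20). Groups did not overlap in 3 members (7.69%), with Ccnd1 and Ccnd3 higher and Cdkn1b lower, against 5.30% of all genes (2.96% higher and 2.34% lower).

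Averaging the 2 genotype comparisons used all 16 mice. Here limma called 2 of 39 members, Ccnd3 higher and Cdkn1b lower in mutants, against 6.54% of all genes (4.48% higher and 2.06% lower). At an unadjusted p under 0.05 there were 10 members, against 22.7% of all genes. The median was 0.23 against 0.002 for all genes, and 30 members (76.9%) were higher against 50.4%. When values were scaled to the same sum without Prl, the median of all genes moved to -0.13 on SD and to -0.06 in the average, and the members' medians were 0.06 and 0.17. The average of the genotype comparisons shares its mice with both of them, so it is no separate measurement.

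Each mouse was also given a level, the mean log2 value of the 39 members. It was 2.33, 2.003, 2.31 and 2.17 in SD controls, 2.42, 2.27, 2.39 and 2.66 in SD mutants, 2.02, 2.18, 2.02 and 2.46 in HFD controls, and 2.43, 2.31, 2.33 and 2.47 in HFD mutants. The groups overlapped on both diets, on HFD through control 4. Mutant and control means differed by 0.23 on SD and 0.21 on HFD, against a standard deviation of 0.156 within groups. The level of mutant 4 on SD was the highest of its group, with the highest value of all 16 mice in 10 members, and mutant 1 on SD was highest in 11 and lowest in 6.

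**Figure D1:**
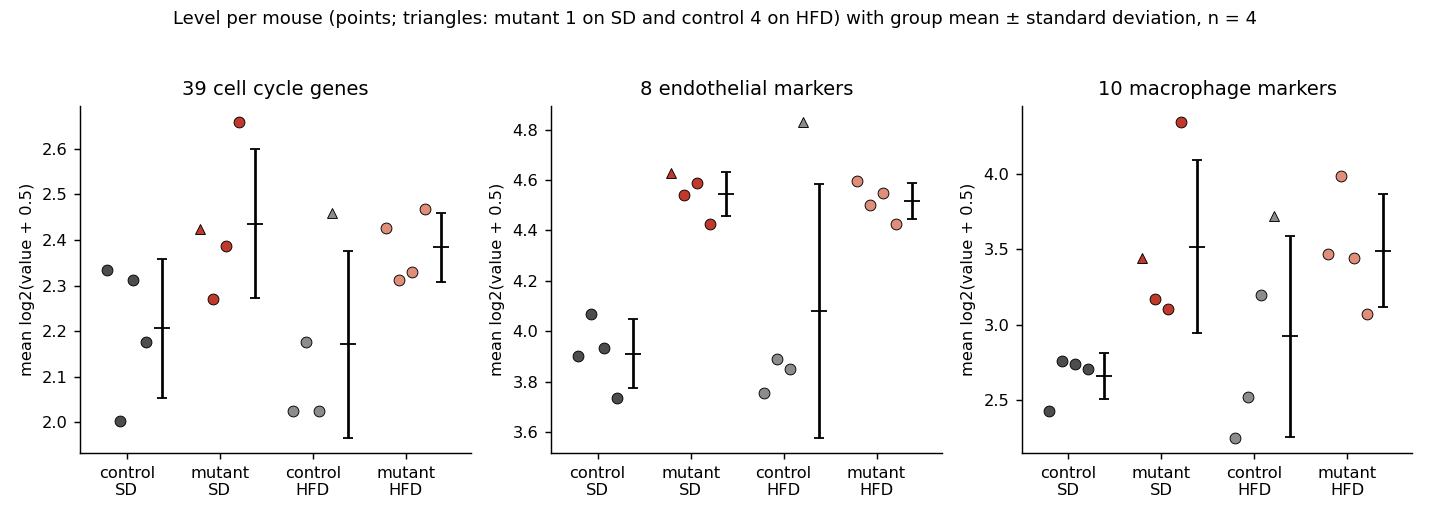
Mean log2(value + 0.5) per mouse of 39 cell cycle genes, 8 endothelial markers and 10 macrophage markers, with 1 point per mouse, group mean and standard deviation (n = 4), and triangles for mutant 1 on SD and control 4 on HFD. The level of the cell cycle genes lay between 2.003 and 2.33 in SD controls and between 2.27 and 2.66 in SD mutants.

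Both of the mice that stand apart bear on these counts. Without control 4 on HFD, limma called 1 member on SD (Tk1, 0.60, adjusted p 0.0298, against 5.42% of all genes), 0 on HFD (against 4.55% of all genes, with 8 members and 16.8% of all genes at an unadjusted p under 0.05) and 8 in the average (13.5% of all genes). These 8 were Ccnd3, Cdkn1b, Cdk1, Cdkn1a, E2f1, Birc5, Ccnd1 and Cdc45. Without mutant 1 on SD, limma called 0 on SD (against 0.934% of all genes, with 3 members and 20.1% of all genes at an unadjusted p under 0.05), 0 on HFD (against 0.00%, with 7 members and 13.9% of all genes at an unadjusted p under 0.05) and 4 in the average (8.84%), namely Ccnd3, Cdkn1b, Ccnd1 and Cdkn1a. Without both mice there was 1 member on SD (Tk1, 6.70% of all genes), 2 on HFD (Ccnd1 and Cdkn1a, 7.42%) and 9 in the average (18.6%), of which 8 were higher in mutants and Cdkn1b lower. In the average those 9 added Aurkb to the 8 called without control 4 on HFD. Members' medians without both mice were 0.20 on SD, 0.26 on HFD and 0.20 in the average, against 0.02, 0.02 and 0.01 for all genes.

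Of the other mice, leaving out control 1 on SD gave 1 member on SD (Tk1, 0.68, adjusted p 0.0235, against 5.76% of all genes) and 3 in the average (Cdk1, Ccnd3 and Cdkn1b, against 9.84%). Mutant 3 on HFD left out gave 3 in the average (Ccnd3, Kif23 and Cdkn1a, against 3.95% of all genes). Leaving out control 3 on SD, control 4 on SD, control 2 on HFD or mutant 2 on HFD gave 0 in the average by limma (against 3.07 to 3.53% of all genes), with 9 to 11 members and 18.4 to 19.5% of all genes at an unadjusted p under 0.05. A single member was called in the average without each of control 2, mutant 2, mutant 3 and mutant 4 on SD, and control 1, control 3, mutant 1 and mutant 4 on HFD, against 3.26 to 4.98% of all genes.

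Among the 9 licensing genes, 8 were tested and Cdc6 lay under the filter at a mean of 0.507. Median differences of the 8 were 0.09 on SD and 0.15 on HFD. Mcm2, a subunit of the helicase, stood at 8.94, 7.45, 5.002 and 6.17 in SD controls, 3.77, 9.99, 8.14 and 10.4 in SD mutants, 8.76, 5.06, 5.67 and 6.83 in HFD controls, and 10.9, 6.70, 7.41 and 9.32 in HFD mutants. Its groups overlapped on both diets, with mutant 1 on SD the lowest of the 16. Mcm2 differed by 0.26 in the average (limma adjusted p 0.465, above the control mean in 7 of 8 mutants). With each mouse left out, this ran from 0.185 to 0.412 (limma adjusted p 0.0911 to 0.648). Mcm6, in the same ring, was at 1.72, 2.81, 2.27 and 2.81 in SD controls, 0.772, 2.19, 2.08 and 2.47 in SD mutants, 1.43, 1.66, 0.94 and 1.99 in HFD controls, and 2.04, 2.09, 2.12 and 1.81 in HFD mutants. Mutants tended below controls on SD and above them on HFD, with overlap on both diets. Mutant 1 on SD was the lowest of the 16, and without it the SD difference of Mcm6 was -0.064. With all mice the interaction for Mcm6 was 0.69 (limma adjusted p 0.924). Mcm7 lay higher than both, at 21.6, 21.6, 22.8 and 22.5 in SD controls, 17.2, 22.8, 20.3 and 25.3 in SD mutants, 20.7, 24.9, 28.3 and 23.9 in HFD controls, and 15.8, 19.6, 24.7 and 22.5 in HFD mutants. Mutants and controls overlapped on both diets, and Mcm7 differed by -0.15 in the average (limma adjusted p 0.393, below the control mean in 5 of 8 mutants). Its averaged difference ran from -0.200 to -0.094 with each mouse left out. Cdc45, which joins the helicase when origins fire and is named after its values were seen, stood at 2.39, 1.03, 2.86 and 1.96 in SD controls, 2.72, 2.24, 2.66 and 3.21 in SD mutants, 2.05, 1.19, 1.01 and 2.83 in HFD controls, and 2.63, 2.22, 3.68 and 2.66 in HFD mutants. All 8 mutants lay above the control mean of their diet, with controls 1 and 3 on SD and control 4 on HFD among the mutants. The averaged difference of Cdc45 was 0.49 (limma adjusted p 0.153), and without control 4 on HFD it was 0.59 (limma adjusted p 0.0459, range when each mouse was left out 0.0459 to 0.292).

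Promoter letters are given as description, because many members are reported to share them. A CCAAT box, the CHR element TTTGAA and E2F-type sites (TTTGGCGC, TTTCCCGC and TTTCGCGC) were counted on either strand in windows of 300 bases around each start of transcription. Windows were at hand for 40 of the 49 members. CCAAT occurred in 31 of the 40 (77.5%, against 41.1% of all genes with a window and 42.5% of those past the filter). TTTGAA occurred in 17 (42.5%, against 20.2% and 13.9%) and an E2F-type site in 7 (17.5%, against 2.12% and 3.84%). E2F-type sites were in 5 of 7 licensing genes, and TTTGAA was in 8 of 10 spindle genes and 0 of 6 synthesis genes. The window of Mcm6 is printed for its E2F-type letters and lies at chr1:128359656-128359955 of build GRCm38.p6 (RefSeq), minus strand. Capitals mark the motif letters, and a TTTGGCGC in it overlaps a TTTCGCGC of the other strand.

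Mcm6: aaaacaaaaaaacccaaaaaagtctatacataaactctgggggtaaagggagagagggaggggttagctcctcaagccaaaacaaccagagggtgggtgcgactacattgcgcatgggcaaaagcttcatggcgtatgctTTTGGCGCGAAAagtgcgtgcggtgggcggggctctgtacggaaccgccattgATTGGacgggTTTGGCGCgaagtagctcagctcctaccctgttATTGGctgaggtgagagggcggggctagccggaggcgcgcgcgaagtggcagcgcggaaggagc

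Synthesis genes came next, with 5 of 6 tested and Rrm2 under the filter at a mean of 0.629. The mean log2 level of the 5 differed by 0.25 on SD and by -0.14 on HFD, against a standard deviation of 0.14 within groups. Pcna, the clamp that holds DNA polymerase, stood at 22.1, 24.0, 25.7 and 17.0 in SD controls, 26.6, 17.8, 22.1 and 20.3 in SD mutants, 23.2, 24.4, 24.8 and 26.1 in HFD controls, and 15.6, 20.8, 21.2 and 23.5 in HFD mutants. On SD the ranges overlapped, and on HFD only mutant 4 reached the controls. Pcna differed by -0.16 in the average (limma adjusted p 0.403, below the control mean in 7 of 8 mutants), and by -0.219 to -0.100 with each mouse left out. Tyms, which makes thymidylate, was at 6.56, 4.62, 6.39 and 5.75 in SD controls, 6.01, 4.46, 4.73 and 5.10 in SD mutants, 5.46, 7.66, 5.15 and 7.49 in HFD controls, and 6.89, 4.98, 8.39 and 6.51 in HFD mutants, overlapping on both diets. Uhrf1, which keeps DNA methylation on new strands, was at 0.426, 0.422, 1.03 and 0.824 in SD controls, 0.807, 1.05, 0.893 and 3.75 in SD mutants, 0.648, 1.35, 1.33 and 2.68 in HFD controls, and 0.954, 1.34, 1.03 and 1.46 in HFD mutants. Mutant 4 on SD and control 4 on HFD were the high mice, and the rest overlapped.

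Tk1, which salvages thymidine in S phase, stood at 8.43, 7.501, 5.93 and 6.49 in SD controls and at 11.54, 9.76, 13.1 and 9.64 in SD mutants. On HFD it stood at 6.67, 7.31, 8.74 and 8.58 in controls and at 6.42, 5.13, 7.12 and 5.89 in mutants. SD mutants lay above all other mice, and HFD mutants tended below HFD controls with an overlap through mutant 3. Tk1 was named for its SD gap, which alone fixes the exact permutation p on SD at 0.0286. The SD difference was 0.60 (standard error 0.150, limma adjusted p 0.0525, above the control mean in 4 of 4 mutants, two-sided exact permutation p 0.0286). On HFD it was -0.33 (limma adjusted p 0.478, below the control mean in 4 of 4). The interaction of genotype and diet for Tk1 was -0.93 (limma adjusted p 0.846). Without control 4 on HFD, Tk1 on SD passed the test (0.60, limma adjusted p 0.0298), as it did without control 1 on SD (0.68, 0.0235) and with all mice in eBayes without trend (0.60, 0.0477), and over the 16 mice left out the adjusted p ran to 0.16.

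Of the 6 genes of entry into S phase all were tested, and their median difference was 0.25 on SD and 0.25 on HFD. Ccnd3 (cyclin D3, ENSMUSG00000034165, chr17:47505051-47599691, plus strand) was the most abundant member, with a mean of 73.1. It stood at 69.1, 76.1, 60.9 and 56.2 in SD controls and at 87.7, 78.9, 81.1 and 78.6 in SD mutants. HFD controls had 63.9, 64.7, 69.5 and 69.7, and HFD mutants had 75.0, 80.3, 74.0 and 84.6. On each diet all 4 mutants lay above all 4 controls, by a narrow gap on SD through control 2. The difference was 0.32 on SD (×1.25, two-sided exact permutation p 0.0286, limma adjusted p 0.0833) and 0.23 on HFD (×1.17, exact permutation p 0.0286, limma adjusted p 0.43), with an interaction of -0.10 (limma adjusted p 0.946). In the average Ccnd3 rose by 0.27 (×1.21, standard error 0.066, limma adjusted p 0.0246, above the control mean in 8 of 8 mutants). The adjusted p was 0.0147 to 0.0918 over the alternatives. It was above 0.05 under quantile normalization (0.21, 0.0666) and under scaling to the sum without Prl (0.20, 0.0918). It was also above 0.05 without control 3 on SD (0.26, 0.0591), control 4 on SD (0.24, 0.0531), control 2 on HFD (0.27, 0.0595) or mutant 2 on HFD (0.27, 0.0549). The annotation places Bysl over part of Ccnd3 on the other strand, and whether the libraries kept the strand is not stated. Other named members overlap a protein-coding gene in the same way, namely Cdc45 (Ufd1), Mcm7 (Cops6 and Ap4m1), Tk1 (Afmid), Ccne2 (Ints8), Ccna2 (Exosc9), Cdc20 (Elovl1), Nusap1 (Oip5) and Ccnd1 (LTO1). Windows at both RefSeq starts of Ccnd3 are printed because it is 1 of the 2 members called, at chr17:47504801-47505100 and chr17:47593217-47593516 on the plus strand of GRCm38.p6. The first window holds none of the motifs and the second 1 CCAAT.

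Ccnd3: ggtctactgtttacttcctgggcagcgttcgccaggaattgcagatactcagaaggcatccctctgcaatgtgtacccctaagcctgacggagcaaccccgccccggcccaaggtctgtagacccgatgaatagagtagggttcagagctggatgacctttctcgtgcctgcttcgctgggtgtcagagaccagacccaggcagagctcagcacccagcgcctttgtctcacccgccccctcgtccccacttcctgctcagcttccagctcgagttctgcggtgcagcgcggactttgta

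Ccnd3: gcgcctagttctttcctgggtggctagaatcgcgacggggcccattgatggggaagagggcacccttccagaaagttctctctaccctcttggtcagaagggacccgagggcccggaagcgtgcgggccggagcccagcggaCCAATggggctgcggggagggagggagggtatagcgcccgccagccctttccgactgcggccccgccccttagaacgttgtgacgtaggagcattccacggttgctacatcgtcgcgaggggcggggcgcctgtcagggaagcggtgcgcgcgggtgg

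Ccnd1, the cyclin that growth factors induce, stood at 39.01, 42.5, 26.03 and 26.4 in SD controls, 25.0, 47.3, 37.5 and 42.3 in SD mutants, 35.2, 31.6, 23.5 and 44.8 in HFD controls, and 54.9, 50.1, 46.6 and 54.2 in HFD mutants. Values overlapped on SD, while on HFD all mutants lay above all controls. The HFD difference was 0.63 (×1.55, two-sided exact permutation p 0.0286, limma adjusted p 0.325, above the control mean in 4 of 4), and that on SD was 0.18 (limma adjusted p 0.678, above the control mean in 3 of 4), with an interaction of 0.46. With each mouse left out, the SD difference of Ccnd1 ran from 0.061 to 0.363. Without both mice that stand apart Ccnd1 rose by 0.78 on HFD (limma adjusted p 0.0183, range over alternatives 0.0183 to 0.463) and by 0.57 in the average (limma adjusted p 0.00715, range 0.00715 to 0.27). In the average it passed without mutant 1 on SD (0.50, limma adjusted p 0.0379) and without control 4 on HFD (0.48, 0.0453), and with all mice it was 0.41 (limma adjusted p 0.127). Ccnd2, the remaining D-type cyclin, was at 70.8, 67.6, 62.8 and 59.3 in SD controls, 32.5, 59.9, 54.2 and 61.0 in SD mutants, 65.7, 68.6, 61.0 and 50.4 in HFD controls, and 68.6, 61.5, 58.1 and 61.1 in HFD mutants. Mutant 1 on SD was the low mouse, and the groups overlapped on both diets. Its SD difference was -0.36 (two-sided exact permutation p 0.0857, limma adjusted p 0.23, below the control mean in 4 of 4), and without mutant 1 on SD it was -0.16 (limma adjusted p 0.415, range over alternatives 0.155 to 0.624).

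Ccne2, a cyclin E that starts DNA synthesis, was at 4.91, 3.22, 6.32 and 3.88 in SD controls, 13.0, 7.59, 7.11 and 6.84 in SD mutants, 7.20, 3.39, 3.49 and 5.52 in HFD controls, and 4.65, 4.42, 5.12 and 10.3 in HFD mutants. All SD mutants lay above all SD controls, with mutant 1 farthest up, and HFD groups overlapped. On SD the difference was 0.84 (standard error 0.297, two-sided exact permutation p 0.0286, limma adjusted p 0.142, above the control mean in 4 of 4). E2f1, a transcription factor of S-phase genes named after its values were seen, was at 1.37, 0.96, 0.929 and 1.00 in SD controls, 1.48, 1.51, 1.24 and 2.23 in SD mutants, 0.803, 0.853, 0.795 and 1.28 in HFD controls, and 1.41, 1.63, 1.35 and 1.24 in HFD mutants. All 8 mutants lay above the control mean of their diet, with 1 control on each diet among the mutants. E2f1 differed by 0.42 in the average (limma adjusted p 0.0898), and by 0.47 without control 4 on HFD (limma adjusted p 0.0361, range over mice left out 0.0361 to 0.172).

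The inhibitors of cyclin-dependent kinases were 3 genes, all tested. Cdkn1b (ENSMUSG00000003031, chr6:134920401-134925513, plus strand) encodes an inhibitor whose loss gives pituitary tumours in mice. SD controls had 58.8, 57.1, 59.7 and 61.6, and SD mutants had 48.6, 55.5, 54.5 and 53.8. In HFD controls it was at 62.3, 60.1, 67.9 and 61.2, and in HFD mutants at 52.6, 54.5, 53.1 and 56.8. All 8 mutants lay below all 8 controls, and the gaps were small beside the level of the gene. Differences were -0.16 on SD (×0.896, two-sided exact permutation p 0.0286, limma adjusted p 0.244) and -0.21 on HFD (×0.865, exact permutation p 0.0286, limma adjusted p 0.339), with an interaction of -0.05 (limma adjusted p 0.961). Cdkn1b fell by 0.18 in the average (×0.88, standard error 0.052, limma adjusted p 0.0457, below the control mean in 8 of 8). Its adjusted p ran from 0.0208 to 0.0752 over the alternatives and from 0.0338 to 0.105 with mice left out. It stayed under 0.05 only without control 1 on SD (0.0461), mutant 1 on SD (0.0338) or control 4 on HFD (0.0339), and rose past it without any 1 of the other mice. It was also above 0.05 with a filter at a mean of 5 (0.0523), under scaling to the sum without Prl (0.0752) and in eBayes without trend (0.0744). The RefSeq window of Cdkn1b is printed as that of the other member called, at chr6:134920151-134920450, plus strand, and holds 3 CCAAT boxes, counted on either strand.

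Cdkn1b: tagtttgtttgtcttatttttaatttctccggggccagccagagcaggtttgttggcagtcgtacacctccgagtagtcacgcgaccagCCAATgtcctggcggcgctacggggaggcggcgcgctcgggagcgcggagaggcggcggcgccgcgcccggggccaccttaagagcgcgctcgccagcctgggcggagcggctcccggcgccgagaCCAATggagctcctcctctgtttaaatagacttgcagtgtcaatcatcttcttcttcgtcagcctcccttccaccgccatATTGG

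Cdkn1a, an inhibitor that p53 turns on, was at 7.69, 7.06, 8.21 and 6.62 in SD controls, 7.30, 7.35, 11.3 and 12.3 in SD mutants, 4.95, 4.21, 3.86 and 6.34 in HFD controls, and 8.74, 7.54, 5.19 and 8.17 in HFD mutants. Mutants 3 and 4 on SD were the highest, and on HFD the groups overlapped through control 4 and mutant 3. In the average Cdkn1a differed by 0.44 (standard error 0.143, limma adjusted p 0.0767, above the control mean in 6 of 8). Without both mice that stand apart it rose by 0.56 in the average (limma adjusted p 0.0117, range over alternatives 0.0117 to 0.172) and by 0.69 on HFD (limma adjusted p 0.0453, range 0.0453 to 0.504). In the average it passed without mutant 1 on SD (0.50, 0.0426), control 4 on HFD (0.51, 0.0272) or mutant 3 on HFD (0.52, limma adjusted p 0.0494).

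**Figure D2:**
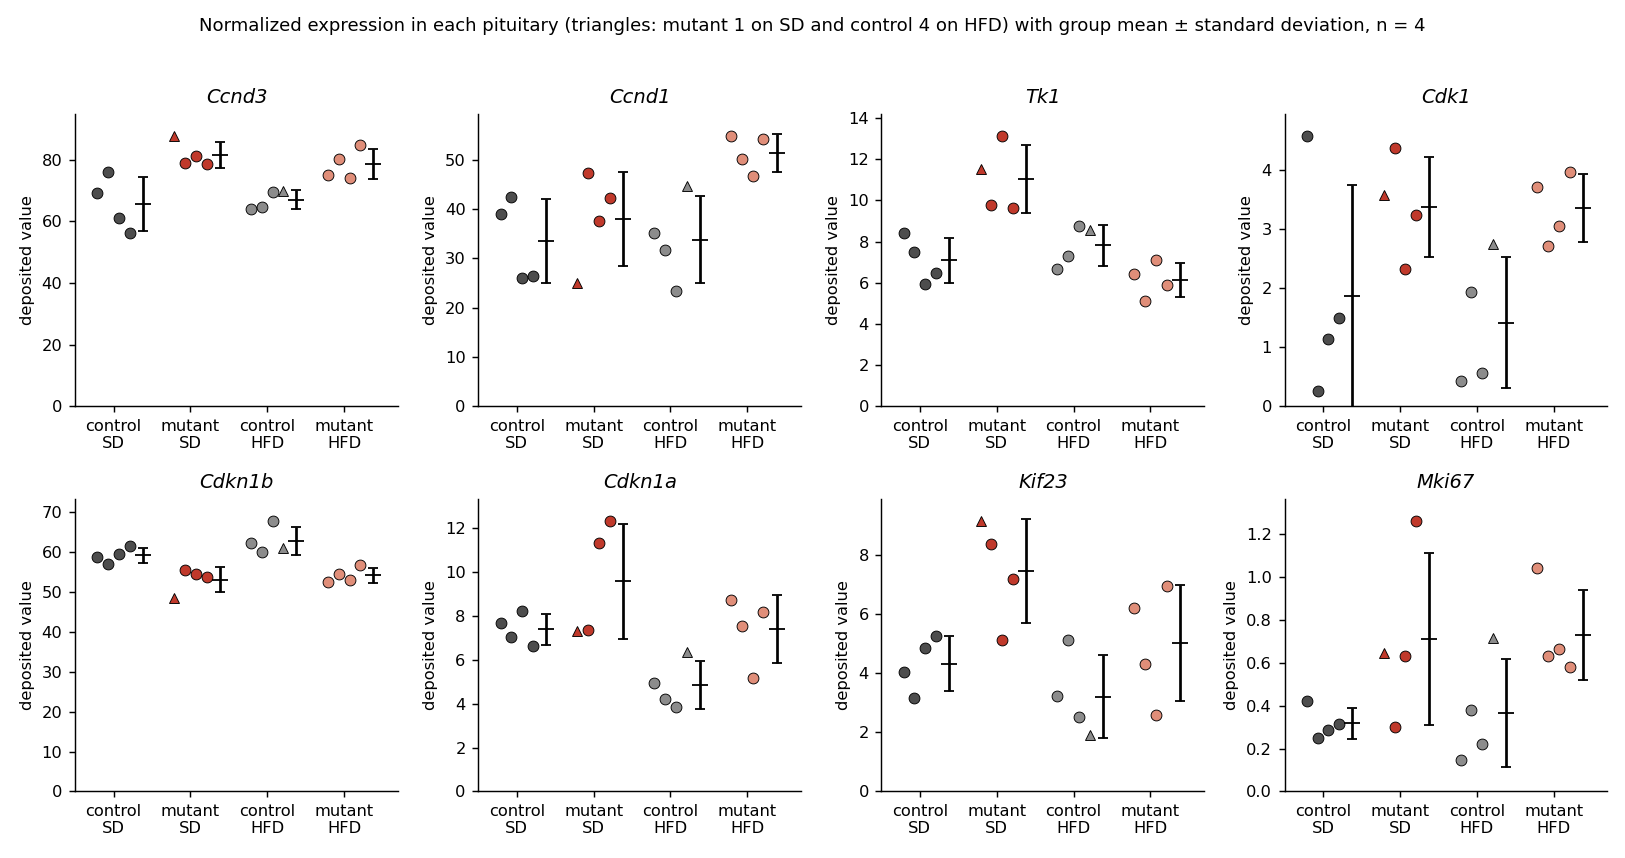
Normalized expression of 8 members in each pituitary, with group mean and standard deviation (n = 4) and triangles for mutant 1 on SD and control 4 on HFD. Axes start at 0, where the bar of Cdk1 in SD controls ends, and Cdkn1b lay between 48.6 and 56.8 in all mutants and between 57.1 and 67.9 in all controls.

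Of the mitotic kinase Cdk1 and its cyclins, 3 of 4 were tested. Cdk1 stood at 4.59, 0.264, 1.15 and 1.501 in SD controls and at 3.59, 4.38, 2.32 and 3.25 in SD mutants. On HFD it stood at 0.435, 1.94, 0.557 and 2.74 in controls and at 3.71, 2.71, 3.06 and 3.96 in mutants. Most controls lay below the mutants, except control 1 on SD, which was above all other mice, and control 4 on HFD, which was above mutant 2. Differences were 1.01 on SD (×2.01, two-sided exact permutation p 0.143, limma adjusted p 0.252) and 1.20 on HFD (×2.29, exact permutation p 0.0571, limma adjusted p 0.408). Averaged over diets it was 1.10 (×2.15, standard error 0.338, limma adjusted p 0.0629, above the control mean in 8 of 8 mutants). Cdk1 passed the averaged test without control 1 on SD (1.34, limma adjusted p 0.0109), without control 4 on HFD (1.26, 0.0193) and without both mice that stand apart (1.25, 0.0264), and over the alternatives the adjusted p ran from 0.0264 to 0.084. With any 1 of the other mice left out it stayed above 0.05, up to 0.137 without control 3 on HFD, and the difference was lowest without control 2 on SD (0.89 in the average and 0.57 on SD). At the depth estimated from the steps, a Cdk1 value rested on a median of at most about 187 reads, a bound taken from the longest transcript of the gene. Its RefSeq window at chr10:69352863-69353162, minus strand, is shown because Cdk1 had the largest difference of the members and holds all 3 kinds of motif.

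Cdk1: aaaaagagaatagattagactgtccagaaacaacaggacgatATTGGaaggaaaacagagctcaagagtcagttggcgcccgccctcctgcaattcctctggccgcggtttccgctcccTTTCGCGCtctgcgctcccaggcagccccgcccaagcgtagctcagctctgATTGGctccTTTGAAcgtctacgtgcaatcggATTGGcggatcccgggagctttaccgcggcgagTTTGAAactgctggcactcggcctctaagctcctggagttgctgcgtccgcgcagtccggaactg

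Ccna2, cyclin A2, was at 2.55, 1.62, 2.56 and 2.51 in SD controls, 4.65, 2.22, 3.59 and 2.61 in SD mutants, 2.81, 2.41, 1.85 and 4.18 in HFD controls, and 3.92, 2.58, 4.17 and 2.66 in HFD mutants. Groups overlapped on both diets, and Ccna2 differed by 0.31 in the average (limma adjusted p 0.314, above the control mean in 5 of 8). Ccnb1, cyclin B1, lay under the filter at 0.945, 0.542, 0.469 and 1.03 in SD controls, 0.394, 0.265, 1.46 and 1.27 in SD mutants, 0.181, 0.471, 0.0822 and 0.977 in HFD controls, and 1.02, 1.35, 0.832 and 0.467 in HFD mutants. These values overlapped on both diets, with differences of 0.02 on SD (two-sided exact permutation p 0.971) and 0.67 on HFD (exact permutation p 0.143).

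Kinases and checkpoint genes had 7 of 9 members tested, with median differences of 0.43 on SD and 0.35 on HFD. Aurka, the Aurora kinase of spindle poles, was at 1.49, 0.953, 1.92 and 1.39 in SD controls, 0.62, 1.07, 0.819 and 1.93 in SD mutants, 1.20, 1.99, 1.04 and 1.40 in HFD controls, and 1.85, 1.16, 1.40 and 2.21 in HFD mutants. It overlapped on both diets, and its averaged difference was -0.07. Aurkb, the Aurora kinase of centromeres, was at 1.45, 0, 0.278 and 0.741 in SD controls, 0.633, 1.63, 1.31 and 1.15 in SD mutants, 0.655, 0.298, 0.667 and 3.24 in HFD controls, and 0.825, 0.908, 2.01 and 2.09 in HFD mutants. Groups of Aurkb overlapped on both diets and control 4 on HFD was the highest of all, and without it and mutant 1 on SD the averaged difference of Aurkb was 0.89 (limma adjusted p 0.0487, range over alternatives 0.0487 to 0.401). With all mice it was 0.57 (limma adjusted p 0.337, above the control mean in 6 of 8). Birc5, which guides Aurora kinase B, was at 1.20, 0.406, 0.805 and 1.52 in SD controls, 1.22, 1.63, 0.704 and 2.50 in SD mutants, 0.521, 0.661, 0.403 and 1.49 in HFD controls, and 1.57, 1.23, 1.96 and 1.77 in HFD mutants. Among HFD controls control 4 alone reached the mutants, and SD groups overlapped. In the average Birc5 differed by 0.62 (limma adjusted p 0.126, above the control mean in 7 of 8), and by 0.74 without control 4 on HFD (limma adjusted p 0.0376, range over mice left out 0.0376 to 0.239).

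Pttg1, securin, which was first cloned from a pituitary tumour, was at 1.63, 1.51, 3.28 and 1.09 in SD controls, 1.47, 0.346, 1.75 and 2.37 in SD mutants, 1.20, 0.989, 0.679 and 1.59 in HFD controls, and 0.881, 0.999, 2.55 and 2.13 in HFD mutants. It overlapped on both diets, with a difference of 0.02 in the average (limma adjusted p 0.974, above the control mean in 3 of 8). Cdc20, which starts anaphase, stood at 1.62, 1.57, 1.43 and 0.677 in SD controls and at 3.04, 1.77, 1.64 and 2.15 in SD mutants. On HFD Cdc20 stood at 0.971, 2.07, 0.936 and 2.14 in controls and at 1.17, 2.18, 1.14 and 1.96 in mutants. All SD mutants were above all SD controls, by a gap that was small beside the spread, and HFD groups overlapped. Cdc20 was named for its SD gap, which alone fixes the exact permutation p on SD at 0.0286. The SD difference was 0.55 (two-sided exact permutation p 0.0286, limma adjusted p 0.295, above the control mean in 4 of 4). That difference ran from 0.301 to 0.773 over the alternatives and from 0.352 to 0.643 with each mouse left out. On HFD it was 0.08 (limma adjusted p 0.962, above the control mean in 2 of 4) and ran from -0.14 to 0.26 over the alternatives, and the interaction was -0.47 (limma adjusted p 0.924). Bub1 and Bub1b, kinases of the spindle checkpoint, lay under the filter and are named after their values were seen. Of the 10 members under the filter, mutants and controls did not overlap only for Bub1b on SD and Bub1 on HFD. Such a gap alone fixes the exact permutation p at 0.0286. The share of other genes under the filter with such a gap is not given. Bub1b stood at 0.145, 0.155, 0.181 and 0.121 in SD controls, 0.307, 0.245, 0.629 and 0.839 in SD mutants, 0.178, 0.337, 0.218 and 0.68 in HFD controls, and 0.817, 0.429, 0.869 and 0.944 in HFD mutants. SD groups did not overlap, and HFD groups overlapped through control 4. The difference was 0.59 on SD (two-sided exact permutation p 0.0286) and 0.58 on HFD (exact permutation p 0.0571), and with no filter Bub1b rose by 0.58 in the average (limma adjusted p 0.0366, above the control mean in 8 of 8). Those values rest on a median of at most about 18 reads, by the longest transcript, and lie near the pseudocount, so that the difference ran from 0.37 to 1.16 on SD and from 0.39 to 1.01 on HFD over the alternatives. The SD p of Bub1b was 0.0857 without any 1 SD control (exact permutation). Bub1 stood at 0.484, 0.0668, 0.145 and 0.237 in SD controls, 0.254, 0.373, 0.375 and 0.887 in SD mutants, 0.0874, 0.236, 0 and 0.172 in HFD controls, and 0.38, 0.297, 0.706 and 0.309 in HFD mutants. SD groups of Bub1 overlapped, and all HFD mutants were above all HFD controls. Differences were 0.40 on SD (two-sided exact permutation p 0.171) and 0.56 on HFD (exact permutation p 0.0286, and 0.0571 without mutant 1 or mutant 3 on HFD), on a median of at most about 15 reads by the longest transcript. Over the alternatives, pseudocounts among them, the differences of Bub1 ran from 0.25 to 0.82 on SD and from 0.34 to 1.30 on HFD. With mice left out, the SD difference of Bub1 ran from 0.213 to 0.55 (exact permutation p 0.0571 to 0.314).

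Spindle and chromosome genes had 7 of 12 tested, with Kif11, Cenpe, Cenpf, Hmmr and Mki67 under the filter. Kif23, a kinesin of the last step of division, stood at 4.04, 3.15, 4.87 and 5.26 in SD controls, 9.16, 8.39, 5.13 and 7.19 in SD mutants, 3.23, 5.14, 2.53 and 1.90 in HFD controls, and 6.20, 4.33, 2.58 and 6.95 in HFD mutants. On SD only control 4 reached a mutant, and on HFD controls 1 and 2 overlapped with mutants 2 and 3. Kif23 differed by 0.64 in the average (×1.56, standard error 0.210, limma adjusted p 0.0786, above the control mean in 7 of 8), and without mutant 3 on HFD by 0.77 (limma adjusted p 0.0379, range over mice left out 0.0379 to 0.155). Nusap1, a microtubule binder, was at 1.64, 1.43, 2.33 and 1.70 in SD controls, 1.88, 0.996, 1.64 and 2.27 in SD mutants, 1.44, 2.35, 1.79 and 1.49 in HFD controls, and 1.35, 1.12, 1.63 and 1.84 in HFD mutants, overlapping on both diets. Top2a, the topoisomerase that untangles chromosomes, was at 2.62, 1.39, 1.71 and 3.94 in SD controls, 3.15, 1.92, 3.56 and 6.02 in SD mutants, 1.05, 4.89, 2.12 and 6.71 in HFD controls, and 6.09, 4.22, 4.50 and 3.81 in HFD mutants. Values of Top2a overlapped on both diets, control 4 on HFD being the highest of all. Its averaged difference was 0.51 (×1.43, limma adjusted p 0.324, above the control mean in 7 of 8), and it ran from 0.32 without control 1 on HFD to 0.68 without control 4 on HFD. The HFD difference of Top2a was 0.52, and 0.12 and 0.86 without those mice.

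Mki67, the usual marker of dividing cells, stood at 0.419, 0.248, 0.288 and 0.314 in SD controls and at 0.645, 0.302, 0.629 and 1.26 in SD mutants. HFD controls had 0.146, 0.378, 0.222 and 0.716, and HFD mutants had 1.04, 0.633, 0.663 and 0.581. Mutants were mostly higher, but mutant 2 on SD lay among SD controls and control 4 on HFD lay among HFD mutants. Differences were 0.51 on SD (two-sided exact permutation p 0.0857) and 0.54 on HFD (exact permutation p 0.114), and p ran from 0.0286 to 0.171 on either diet with mice left out. Over the alternatives, pseudocounts among them, the differences of Mki67 ran from 0.35 to 0.84 on SD and from 0.35 to 0.95 on HFD. With no filter its averaged difference was 0.52 (limma adjusted p 0.074, above the control mean in 7 of 8). An Mki67 value rested on a median of at most about 84 reads, by the longest transcript. The window of Mki67 is printed at chr7:135716330-135716629, minus strand, as that of the usual marker, and holds 3 CCAAT and 2 TTTGAA.

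Mki67: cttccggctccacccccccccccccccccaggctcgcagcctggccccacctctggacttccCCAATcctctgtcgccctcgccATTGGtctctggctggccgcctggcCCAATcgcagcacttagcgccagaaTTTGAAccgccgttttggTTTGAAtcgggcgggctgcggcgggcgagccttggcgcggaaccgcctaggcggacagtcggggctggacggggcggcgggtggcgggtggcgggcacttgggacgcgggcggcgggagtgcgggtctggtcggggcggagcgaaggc

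**Figure D3:**
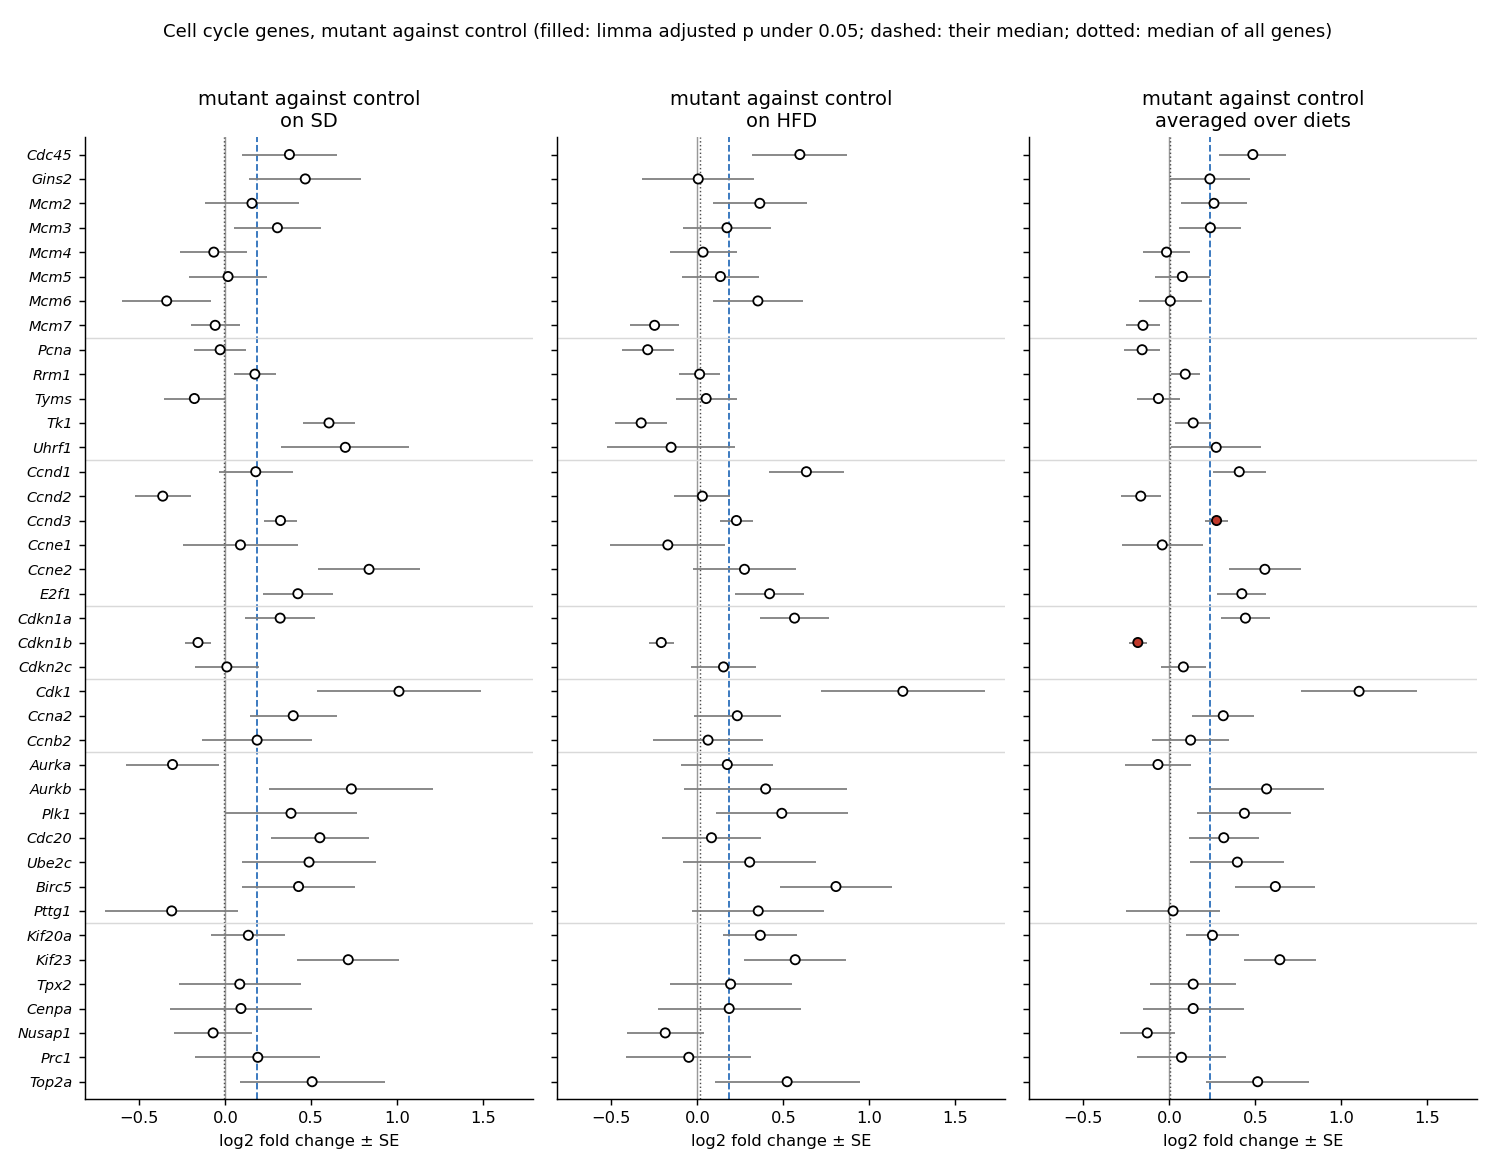
Log2 fold change with standard error of 39 members in mutants against controls on SD, on HFD and averaged over diets, with the members' median dashed and that of all genes dotted. Filled red points (Ccnd3 and Cdkn1b in the average) passed a limma adjusted p of 0.05, and Cdk1 lay highest in each panel.

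Diet was compared within each genotype, to ask whether high fat feeding moved the same genes. In controls limma called 0 of 39 members (1 at an unadjusted p under 0.05, against 4.13% of all genes) and 0.00% of all genes. For mutants it called 0 (2 at an unadjusted p under 0.05, against 5.0% of all genes) and 0.00% of all genes. Averaged over genotypes it called 0 (3 at an unadjusted p under 0.05, against 5.11%), while 0.00697% of all genes passed, 0.00% higher and 0.00697% lower. The interaction of genotype and diet had 0 members by limma (1 at an unadjusted p under 0.05, against 4.20%) and 0.00% of all genes. Median differences of the members were -0.007 in controls, -0.05 in mutants and -0.002 in the interaction, against 0.001, 0.02 and 0.02 for all genes. Scaling to the sum without Prl moved the median of all genes to 0.14 for diet in mutants and to 0.15 in the interaction. Groups did not overlap for Cdkn1a in controls (1 of 39 members, 2.56%, against 2.61% of all genes, 1.25% higher and 1.36% lower), with HFD below SD by a log2 difference of -0.58 (two-sided exact permutation p 0.0286). In mutants they did not overlap for Tk1 (1 of 39, against 3.31% of all genes, 1.88% higher and 1.44% lower). Its difference was -0.79 (×0.577, exact permutation p 0.0286, limma adjusted p 0.275, below the SD mean in 4 of 4). Both genes are given here because their groups did not overlap, which alone gives an exact permutation p of 0.0286.

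**Figure D4:**
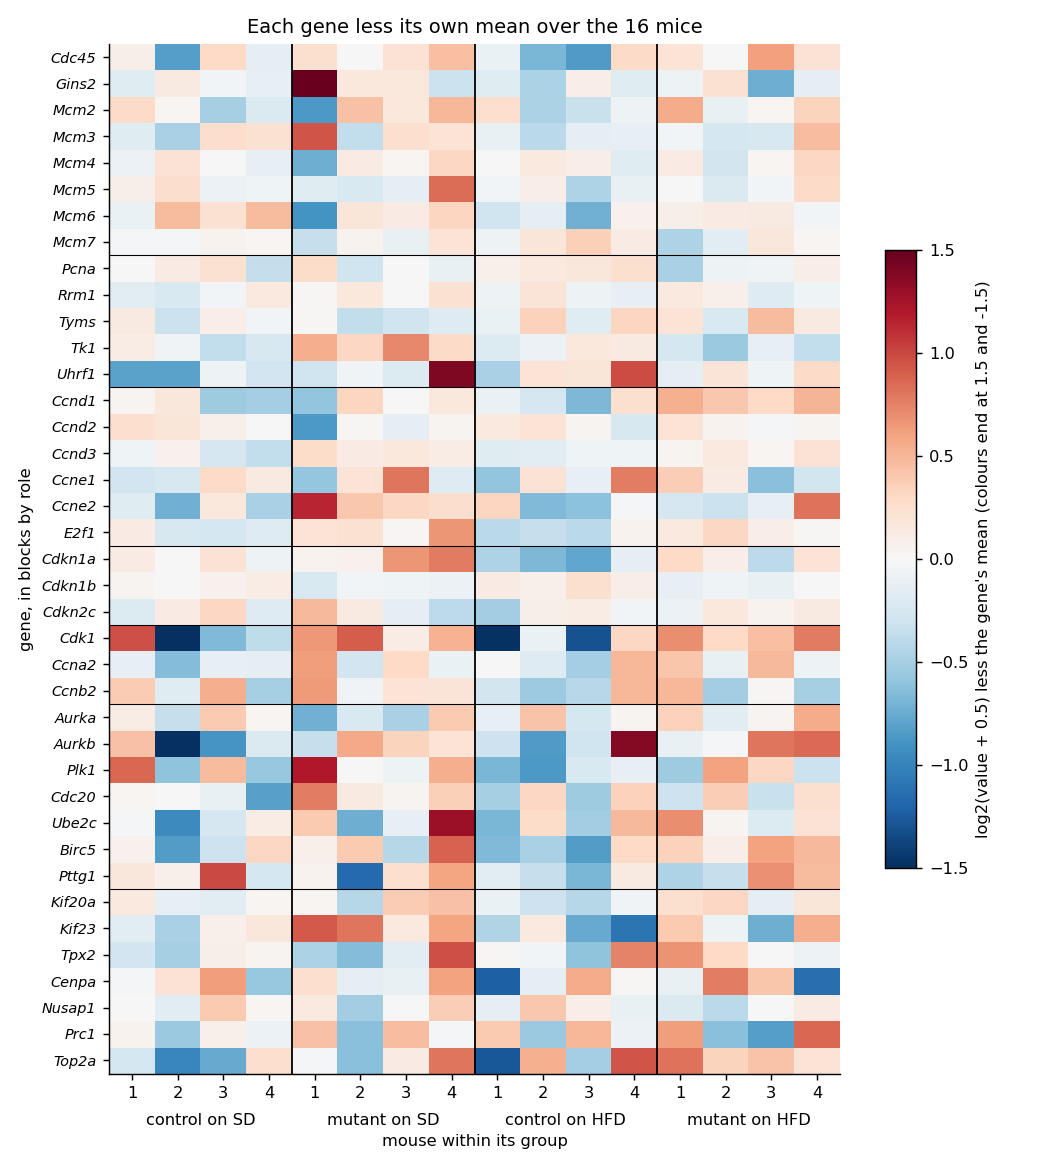
Log2(value + 0.5) of 39 members less the gene's own mean, in 16 mice by group, with colours ending at 1.5 either way. Mutant 1 on SD was the highest mouse in 11 members and the lowest in 6.

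Related genes outside the 49 were read the same way, beside the 1.84% of all genes called on SD, 0.00% on HFD and 6.54% in the average, and the 19.9, 10.2 and 22.7% at an unadjusted p under 0.05. Among other replication genes 0 of 29 tested were called in any genotype comparison by limma (5 on SD, 0 on HFD and 3 in the average at an unadjusted p under 0.05), with medians of 0.10 on SD and -0.13 on HFD. For other mitosis genes it was 0 of 24 (3, 0 and 3 at an unadjusted p under 0.05), with medians of 0.07 and 0.03. Transcription factors of the cycle had 0 of 17 (3, 1 and 2 at an unadjusted p under 0.05), with medians of 0.08 and 0.11. Among 15 other cyclins and kinases limma called 1 in the average, Ccng2, a cyclin of arrested cells. Ccng2 stood at 25.2, 24.2, 38.8 and 36.6 in SD controls, 22.6, 20.6, 13.7 and 21.4 in SD mutants, 21.2, 21.2, 37.0 and 23.8 in HFD controls, and 18.6, 17.9, 17.4 and 18.4 in HFD mutants. Mutants lay below controls on both diets with no overlap. It fell by 0.56 in the average (limma adjusted p 0.0291, lower in 8 of 8, range over alternatives 0.0155 to 0.0362). The adjusted p of Ccng2 lay between 0.0528 and 0.0676 without control 3 or 4 on SD, mutant 3 on SD, control 3 on HFD, or mutant 1, 2 or 3 on HFD.

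Of 14 p53 targets limma called 2 in the average, against 6.54% of all genes. Plk3, a stress kinase, stood at 4.20, 2.89, 2.35 and 2.47 in SD controls, 5.68, 4.82, 5.32 and 4.65 in SD mutants, 1.96, 1.66, 1.51 and 5.70 in HFD controls, and 6.42, 7.76, 5.03 and 3.56 in HFD mutants. SD groups did not overlap, and on HFD control 4 lay among the mutants. Plk3 rose by 0.89 in the average (limma adjusted p 0.0272, above the control mean in 8 of 8, range over alternatives 0.000691 to 0.0412), and without control 4 on HFD it also passed on HFD (1.44, limma adjusted p 0.00214). In the average its p lay between 0.0512 and 0.0666 without control 3 or 4 or mutant 3 on SD, control 1, 2 or 3 on HFD, or mutant 1 or 2 on HFD. Trp53inp1, which p53 induces under stress, stood at 39.4, 39.5, 49.8 and 46.2 in SD controls, 25.2, 34.5, 32.3 and 38.96 in SD mutants, 37.7, 43.9, 41.2 and 43.5 in HFD controls, and 35.8, 31.2, 36.7 and 36.1 in HFD mutants. All mutants were below the controls of their diet, by narrow gaps. Trp53inp1 fell by 0.34 in the average (limma adjusted p 0.034, lower in 8 of 8, range over alternatives 0.0164 to 0.0657), with a p between 0.0535 and 0.079 without control 3 or 4 or mutant 3 on SD, control 2 or 3 on HFD, or mutant 1, 2 or 3 on HFD.

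Growth regulators of the pituitary had 18 tested, of which limma called 2 on SD (against 1.84% of all genes) and 3 in the average (against 6.54%). Areg, a ligand of the epidermal growth factor receptor that oestrogen can induce, stood at 1.62, 0, 0 and 0.219 in SD controls, 5.85, 3.84, 5.94 and 7.29 in SD mutants, 2.75, 0.067, 0.242 and 4.08 in HFD controls, and 4.19, 4.02, 4.09 and 6.98 in HFD mutants. SD groups did not overlap, and on HFD control 4 lay among the mutants and control 1 below them. Areg rose by 2.96 on SD (standard error 0.593, limma adjusted p 0.0264, above all controls in 4 of 4) and by 2.34 in the average (limma adjusted p 0.0058), with an interaction of -1.24. With SD controls 2 and 3 at 0 the size depends on the pseudocount, and over the alternatives it ran from 2.31 to 4.38 on SD and from 1.83 to 3.39 in the average. The adjusted p of Areg ran from 0.00982 to 0.11 on SD, the highest with the level of lobe markers as a covariate, and from 0.000814 to 0.0107 in the average. The SD value of Areg lay between 0.0514 and 0.0906 without control 2, 3 or 4 on SD or any 1 mutant on SD. Without control 4 on HFD Areg also passed on HFD (2.23, limma adjusted p 0.0348). Fgfr1, a receptor of fibroblast growth factors, stood at 22.9, 24.5, 24.9 and 25.6 in SD controls, 38.0, 48.5, 50.7 and 40.9 in SD mutants, 26.6, 20.8, 25.3 and 41.4 in HFD controls, and 32.1, 40.1, 45.1 and 40.3 in HFD mutants. Control 4 on HFD again lay among the mutants, and the other controls lay below them. Fgfr1 rose by 0.84 on SD (limma adjusted p 0.0264, above all controls in 4 of 4, range over alternatives 0.000763 to 0.0992) and by 0.67 in the average (limma adjusted p 0.00568). Fgfr1 on SD did not pass with the level of lobe markers as a covariate (0.0992) or under scaling to the sum without Prl (0.0764). The SD value of Fgfr1 lay between 0.0504 and 0.0835 without control 2, 3 or 4 or mutant 2, 3 or 4 on SD, and without control 4 on HFD it also passed on HFD (0.69, limma adjusted p 0.00761). Tgfb1, a growth inhibitor of lactotrophs, stood at 4.05, 3.68, 3.49 and 5.57 in SD controls, 5.18, 6.29, 6.19 and 6.48 in SD mutants, 2.93, 4.04, 3.54 and 6.47 in HFD controls, and 9.48, 6.36, 6.46 and 5.60 in HFD mutants. Control 4 on each diet lay among the mutants of that diet. Tgfb1 rose by 0.59 in the average (limma adjusted p 0.0333, range over alternatives 0.00215 to 0.0823). With mice left out Tgfb1 kept an adjusted p under 0.05 in the average only without control 1 or 4 on SD, mutant 1 on SD, control 4 on HFD or mutant 4 on HFD. Without control 4 on HFD Tgfb1 also passed on HFD (0.89, limma adjusted p 0.0162).

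Markers of cell types were read beside the members. Endothelial markers were higher in SD mutants in 8 of 8, against 49.0% of all genes, and limma called 4 of 8 in the average, against 6.54%. Their summed values were 156, 179, 168 and 144 in SD controls, 301, 244, 243 and 218 in SD mutants, 139, 152, 153 and 273 in HFD controls, and 239, 223, 232 and 219 in HFD mutants. All mutants lay above the controls of their diet but for control 4 on HFD. Plvap was the most abundant of the 8, and none stood at 0 in a mouse. The mean log2 level of the endothelial markers differed by 0.64 on SD and 0.44 on HFD. Control 4 on HFD had a level of 4.83, against 3.75 to 3.89 in the other HFD controls, and so made the HFD difference smaller. Macrophage markers were higher in SD mutants in 10 of 10, and limma called 1 on SD (against 1.84% of all genes) and 2 in the average (against 6.54%). Summed, they came to 62.7, 84.5, 82.3 and 80.0 in SD controls, 139, 111, 109 and 304 in SD mutants, 53.3, 69.3, 120 and 176 in HFD controls, and 135, 218, 139 and 105 in HFD mutants, with C1qa the most abundant. SD groups did not overlap, and mutant 4 on SD, the mouse with the highest level of the members, had the highest sum. The 6 erythroid markers, led by Hba-a2, had a level that differed by 0.80 on SD and 0.52 on HFD. Of these 6 limma called 0 in a genotype comparison, against 1.84% of all genes on SD, 0.00% on HFD and 6.54% in the average. At an unadjusted p under 0.05 there were 3 on SD, 1 on HFD and 4 in the average, against 19.9, 10.2 and 22.7% of all genes. Lymphocyte markers had a level of 1.86 in mutant 4 on SD, against 0.95 or less in the other mice, and differed by 0.39 on SD and 0.29 on HFD, within a standard deviation of 0.538 between mice of a group. The other SD mutants lay at -0.193 to 0.412 and SD controls at -0.105 to 0.481, so the SD difference rested on mutant 4. Thyrotroph markers differed by 0.50 on SD and 0.58 on HFD, against a standard deviation of 0.252. Fibroblast and pericyte markers differed by 0.22 on SD and 0.49 on HFD, against a standard deviation of 0.396, and stem cell markers by 0.30 and 0.12. Mutant 1 on SD had a fibroblast and pericyte level of 3.18 (other SD mutants 3.92 to 4.05). Control 4 on HFD had 4.39 (other HFD controls 3.16 to 3.44), so both mice made these differences smaller. The level of lactotroph markers differed by -0.35 on SD and -0.15 on HFD. Prl itself differed by 0.25 on SD (limma adjusted p 0.817, above the control mean in 3 of 4 mutants) and by 0.08 on HFD (limma adjusted p 0.982, above the control mean in 2 of 4). Which cells the members' RNA came from was not tested, and neither was whether the share of vessels, macrophages or blood in the tissue accounts for any of these differences.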

How the data were processed

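RNA of pituitaries of 16 female mice was sequenced from NEBNext Ultra II libraries on a NovaSeq instrument, per the labels. The deposited values are a signal, normalized expression per gene computed by the authors; the submitters' notes name kallisto, sleuth and mm10, and versions are not given in the sources used here. Values are not counts, the scaling per library is not stated, and their sums differ between mice.

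From there, log2(value + 0.5) was taken and the 14345 genes whose average in the 16 mice reached 1 were fitted with limma 3.58.1 in R 4.3.3 (1 coefficient per group, eBayes with trend, Benjamini-Hochberg adjustment over all genes within a comparison, threshold 0.05). The fit compared mutants with controls on each diet and averaged over diets, HFD against SD in each genotype and averaged over genotypes, and the interaction. A permutation test of 4 against 4 was exact and two-sided, with 0.0286 the smallest p it can give. Any 2 groups of 4 that do not overlap give this p, so it adds nothing for a gene named for such a gap. Tables, steps in low values and plots used numpy 2.4.6, matplotlib 3.10.9 and pandas 2.3.3 under Python 3.11.15. Reads per step were estimated for genes with 1 transcript of at least 1500 bases in GENCODE M21, for values of up to 5 reads. In a test on simulated data, 200 of 14345 genes were changed in the 4 SD mutants. At a log2 change of 1, 71.5% were recovered with 4.03% false calls, against 95.5% and 2.55% at a change of 2. Simulated noise was normal and independent between genes, with no mouse set apart. Smaller changes and the average over diets were not simulated, so these rates need not hold for the calls made here.

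The members and the other lists were chosen with earlier results of these data known, as were the 2 mice left out together. The rule for the genes to name, written with those earlier results known, took Mki67, Top2a, Cdk1, Ccnb1, Ccna2, Pcna, Mcm2, Ccnd1, Ccnd2, Cdkn1a, Cdkn1b and Pttg1, then any member past the threshold in a comparison, then the 5 largest increases and 5 largest decreases among members on SD and in the average of the genotype comparisons. From the other lists the rule took the genes past the threshold, and Esr1 and Prl as context. For the markers of cell types only counts, levels and sums are given, so genes past the threshold there are not named. Cdc45, Tk1, E2f1, Cdc20, Bub1 and Bub1b fall outside it. Alternatives were other pseudocounts, filters, scalings, covariates and thresholds, eBayes without trend, fits of the compared mice alone, and each mouse left out. Promoter windows came from RefSeq on GRCm38.p6.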

Additional observations from a re-analysis of the deposited data

Results flagged for a closer look

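In each group of 4 mice the value farthest out was compared with the range of the group (Dixon's ratio, with its 95% critical value). The search covered 44 measures in 176 groups, and 12 values passed where chance gives about 1 in 20 groups, or 8.8 here.

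Among single genes, Ccna2 was low in control 2 on SD at 1.62, against 2.51 to 2.56 in the other SD controls. Ccne2 was high in mutant 1 on SD at 13.0 (others 6.84 to 7.59) and in mutant 4 on HFD at 10.3 (others 4.42 to 5.12). In control 4 on HFD Aurkb was high at 3.24 (others 0.298 to 0.667) and E2f1 was high at 1.28 (others 0.795 to 0.853). Uhrf1 was high in mutant 4 on SD at 3.75 (others 0.807 to 1.05). Esr1, which is not a member, was low in mutant 1 on SD at 10.02 (others 20.5 to 22.2).

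Mean log2 levels of marker genes gave the remaining values. Endothelial markers were high in control 4 on HFD at 4.83 (others 3.75 to 3.89). Macrophage markers were low in control 1 on SD at 2.43 (others 2.70 to 2.76). In mutant 1 on SD, fibroblast and pericyte markers were low at 3.18 (others 3.92 to 4.05), melanotroph markers at 0.67 (others 2.96 to 3.26) and corticotroph markers at 4.17 (others 5.25 to 5.40). Of the 12 values, 5 lay in mutant 1 on SD and 3 in control 4 on HFD. What sets these mice apart was not tested.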

How the results depend on the processing

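Counts of members called changed as follows, and the cause was not tested unless the alternative names it. Shares of all genes called in the same fit are in parentheses, except at the threshold of 0.01, for which no share is given. On SD the count of 0 became 1 in eBayes without trend (1.74%) and 1 without both mice that stand apart (6.70%), and was 0 to 1 with each mouse left out (0.230 to 5.76%). On HFD it became 2 without both mice (7.42%). In the average the count of 2 became 3 with no filter or a filter at a mean of 0.1 (Ccnd3, Bub1b and Cdkn1b, with 5.66 and 5.83%), 1 with a filter at a mean of 5 (5.65%) and 1 under quantile normalization (7.54%). It became 0 under scaling to the sum without Prl (4.77%), where 10 members and 22.3% of all genes had an unadjusted limma p under 0.05. The count was 9 without both mice (18.6%), 0 at an adjusted p under 0.01, which is a stricter threshold, and 0 to 8 with each mouse left out (3.07 to 13.5%). In eBayes without trend the 2 called in the average were Ccnd3 and E2f1 (6.24%).

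Some small differences changed sign, and the cause was not tested. Under quantile normalization these were Ccnd2 on HFD (-0.007), Cdc20 on HFD (-0.011), Pttg1 in the average (-0.073) and Mcm6 in the average (-0.057). Median scaling gave -0.002 for Ccnd2 on HFD and -0.001 for Mcm6 in the average. Scaling to the sum without Prl gave -0.027 for Pttg1 and -0.039 for Mcm6 in the average, and a pseudocount of 0.1 gave -0.002 for Pttg1. With the level of lobe markers as a covariate the values were -0.13 for Ccnd2 on HFD, -0.009 for Pttg1 in the average and 0.015 for Mcm7 on SD. With animal number (low or high) in the model they were 0.042 for Pcna on SD, 0.007 for Uhrf1 on HFD and -0.14 for Cdc20 on HFD. Without both mice they were -0.062 for Ccnd2 on HFD, 0.014 for Aurka in the average, 0.10 for Uhrf1 on HFD and 0.040 for Mcm7 on SD.

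With each mouse left out, differences ran from -0.15 to 0.058 for Pcna on SD, -0.062 to 0.085 for Ccnd2 on HFD, -0.53 to 0.055 for Pttg1 on SD, -0.090 to 0.20 for Pttg1 in the average, -0.069 to 0.14 for Mcm6 in the average, -0.18 to 0.010 for Aurka in the average, -0.058 to 0.17 for Tyms on HFD, -0.39 to 0.10 for Uhrf1 on HFD, -0.14 to 0.040 for Mcm7 on SD, -0.20 to 0.10 for Nusap1 on SD and -0.064 to 0.23 for Cdc20 on HFD.

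Over the named genes, 1311 of 1371 values under an alternative kept direction and side of the threshold. With a mouse left out 1541 of 1680 did. Most named comparisons did not pass with all mice, and not passing again counts as kept. A pass was lost in 24 values under an alternative and 86 with a mouse left out, and gained in 17 and 19. Direction changed in 19 and 34. A test on counts was not run because the values are not counts. Depth limits genes such as Bub1 and Bub1b, whose values rest on a median of at most about 15 and 18 reads. Some tested members also had low bounds, by the longest transcript. The median was at most about 26 reads for Aurkb, 33 for Pttg1, 40 for Aurka, 45 for Cdc20 and 52 for E2f1.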
